A study of Mus musculus with 2 samples.

Results

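Open chromatin at 10 genes of the tumour necrosis factor (TNF) receptor superfamily was described in mouse regulatory T cells by ATAC-seq, an assay that marks accessible DNA by the insertion of the Tn5 transposase. The genes were Tnfrsf4 (OX40), Tnfrsf18 (GITR), Tnfrsf9 (4-1BB), Cd27, Tnfrsf8 (CD30), Tnfrsf14 (HVEM), Tnfrsf25 (DR3), Tnfrsf1a (TNFR1), Tnfrsf1b (TNFR2) and Fas. The locus of a gene was its body in the GENCODE M21 annotation and 20 kb on either side, and a peak belonged to the locus when its summit lay inside. The 10 loci held 71 of the 34610 distinct peaks of the deposited list that passed a threshold on the IDR (irreproducible discovery rate), which scores whether a peak keeps its rank in repeated calls. They held 94 of the 58871 distinct peaks of the more lenient pseudoreplicated list.

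The cells came from 1 adult male mouse, 4 months old, that carried the alleles Foxp3CreERT2 and Rosa26YFP. CreERT2 is a Cre recombinase that tamoxifen activates, here named after the Foxp3 gene, and YFP is a yellow fluorescent reporter. The labels trace the primary cells back to haematopoietic cells of the bone marrow. They describe the 2 libraries as technical replicates of 1 biological replicate, and the peaks were called on their pooled reads, so no value here has a spread between animals and no test between groups exists. Not given in the sources used here are the organ the cells were isolated from, any tamoxifen and the sort.

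Receptors of this superfamily bind ligands of the TNF superfamily, mostly as trimers, and pass the signal on through adaptors. Receptors such as OX40, GITR, 4-1BB, CD27, CD30, HVEM and TNFR2 recruit TRAF proteins and activate NF-kB, while TNFR1, DR3 and Fas carry a death domain that can also lead to caspase-8 and cell death. In regulatory T cells GITR, OX40 and TNFR2 are known as surface receptors that mark the cells and support their survival and expansion, and GITR and OX40 are known to modulate suppression.

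The labelled cell type was checked against marker genes. All 4 regulatory T cell markers (Foxp3, Il2ra, Ctla4 and Ikzf2) and all 3 T cell markers (Cd3e, Cd3g and Cd4) had a promoter peak, meaning a peak that overlaps 1 kb up- or downstream of an annotated transcription start site (TSS). None of the 8 markers of other cells had one (Cd8a, Cd79a, Ncr1, Klrb1c, Itgam, Lyz2, Hba-a1 and Alb), although their loci held between 0 and 10 peaks. Each peak has a signal, the authors' own enrichment value, and a −log10 p, both of which serve here only to describe and rank peaks within 1 list. Promoter signals of the regulatory T cell and T cell markers ran from 4.56 (Cd4) to 17.2 (Cd3g). The median in all genes with a promoter peak was 17.3. Sequencing depth is unknown, since the lists give no counts of reads.

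The first sequences are shown because their peaks had the highest signal away from start sites in the loci of Tnfrsf4 and Tnfrsf18, Tnfrsf9, Tnfrsf1b and Tnfrsf8, and Fas. They are given 5′ to 3′ on the strand of the named gene from the GRCm38.p6 genome (the same assembly as mm10), 200 bp centred on the summit, with matches to the AP-1, NF-kB, RUNX, STAT and ETS patterns in capitals. The name of each gives the distance of the summit from the principal TSS of the gene (the 5′ end of its APPRIS principal transcript), where a negative value is upstream. Tnfrsf18 at −3.80 kb, which lies near a noncoding start site, was added after its values were seen.
Tnfrsf4 −9.56 kb, chr4:156004187-156004386: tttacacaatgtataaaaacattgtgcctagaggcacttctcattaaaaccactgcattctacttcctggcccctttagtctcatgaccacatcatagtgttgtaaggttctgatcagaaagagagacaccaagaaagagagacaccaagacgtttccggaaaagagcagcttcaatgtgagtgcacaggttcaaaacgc
Tnfrsf18 −3.80 kb, chr4:156022269-156022468: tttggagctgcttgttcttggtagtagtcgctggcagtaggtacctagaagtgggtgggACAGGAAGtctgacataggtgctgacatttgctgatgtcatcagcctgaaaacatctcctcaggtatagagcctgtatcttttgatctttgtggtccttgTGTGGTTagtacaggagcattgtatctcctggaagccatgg
Tnfrsf9 −21.27 kb, chr4:150898819-150899018: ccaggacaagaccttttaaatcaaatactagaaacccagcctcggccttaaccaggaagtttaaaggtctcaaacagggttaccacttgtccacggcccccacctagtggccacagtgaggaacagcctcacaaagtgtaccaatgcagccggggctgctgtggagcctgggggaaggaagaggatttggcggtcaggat
Tnfrsf1b −7.81 kb, chr4:145254576-145254775: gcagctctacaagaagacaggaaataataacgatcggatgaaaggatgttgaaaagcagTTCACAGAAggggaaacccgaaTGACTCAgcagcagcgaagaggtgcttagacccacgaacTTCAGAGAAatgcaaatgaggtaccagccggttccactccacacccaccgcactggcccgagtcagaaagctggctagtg
Fas +43.82 kb, chr19:34334391-34334590: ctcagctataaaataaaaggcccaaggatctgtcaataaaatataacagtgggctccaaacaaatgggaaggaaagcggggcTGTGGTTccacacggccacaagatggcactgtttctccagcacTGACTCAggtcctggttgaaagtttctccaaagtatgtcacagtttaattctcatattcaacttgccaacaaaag

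The Tnfrsf4 and Tnfrsf9 windows held none of the 14 patterns searched. The Tnfrsf18 window held an ETS and a RUNX match, the Tnfrsf1b window an AP-1 match between a pair of STAT matches, and the Fas window a RUNX and an AP-1 match.

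The second set shows promoter sequence with a match to the NF-kB pattern, since NF-kB is the factor that most of these receptors activate. For Tnfrsf8 the whole 200 bp are given, and for Tnfrsf25 and Tnfrsf9 30 bp around the match, because more would run into annotated untranslated sequence. The last line gives 30 bp around the STAT match of the first-exon peak of Tnfrsf18. The Tnfrsf9 and Tnfrsf18 lines were chosen after their values were seen.
Tnfrsf8 −0.13 kb, chr4:145315178-145315377: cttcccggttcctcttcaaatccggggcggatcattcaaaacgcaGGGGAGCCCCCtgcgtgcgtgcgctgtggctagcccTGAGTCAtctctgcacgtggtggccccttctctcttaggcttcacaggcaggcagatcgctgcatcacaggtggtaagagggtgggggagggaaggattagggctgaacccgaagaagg
Tnfrsf25 −0.32 kb, chr4:152116003-152116032: tgagctggtgGGGAAGCCCCgggttacgcg
Tnfrsf9 +7.76 kb, chr4:150927946-150927975: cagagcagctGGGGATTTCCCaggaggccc
Tnfrsf18 +0.11 kb, chr4:156026212-156026241: ctgctctacacTTCACAGAAggcctttaca

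All 10 receptor genes had a promoter peak in the thresholded list (exact Clopper-Pearson 95% interval 69.2 to 100%), against 52.6% of the 21911 protein-coding genes. For all 10 a peak also lay within 1 kb of the 5′ end of the gene, against 48.6% of all genes. The peak covered the principal TSS itself in 8 of 10, against 45.3% of all genes, and the exceptions were Tnfrsf18 and Tnfrsf9. All 10 loci held a peak, against 69.8% of all gene loci. The lowest count was 4 peaks, and 25.3% of all gene loci held at least 4, a threshold set by the receptors' own counts. Since the genes were chosen with earlier results of these data known, these shares are descriptions and carry no p-value. Intervals on shares cover counting error only, and peaks of 1 locus are not independent of each other.

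The loci were dense in peaks. The median was 7 peaks per receptor locus (4 to 14), against 2 over all protein-coding genes. Set against protein-coding genes whose locus was within 10% of the same length, Tnfrsf1b stood at percentile 99.9 with 14 peaks, Tnfrsf8 at 99.8 with 13 and Tnfrsf9 at 99.8 with 12. Tnfrsf4 with 8 peaks stood at percentile 99.2, and Tnfrsf18, Cd27 and Tnfrsf25, with 7 peaks each, at 98.4, 98.3 and 98.3. Tnfrsf14 with 6 peaks stood at 96.0, and Tnfrsf1a and Fas, with 4 peaks each, lay at 81.1 and 78.6. This order depended on the flanks. With 5 kb on either side Tnfrsf4 and Tnfrsf14 held 1 peak each (percentiles 67.6 and 65.4), Tnfrsf1a and Tnfrsf25 held 2 each (75.6 and 85.7) and Fas 3 (82.4). Tnfrsf8, Tnfrsf9, Tnfrsf1b, Tnfrsf18 and Cd27 then held 11, 9, 8, 5 and 4 peaks, at percentiles of 98.9 to 99.9. Among peaks at or above the median −log10 p, the median count was 4 per receptor locus, against 1 over all genes.

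**Figure D1:**
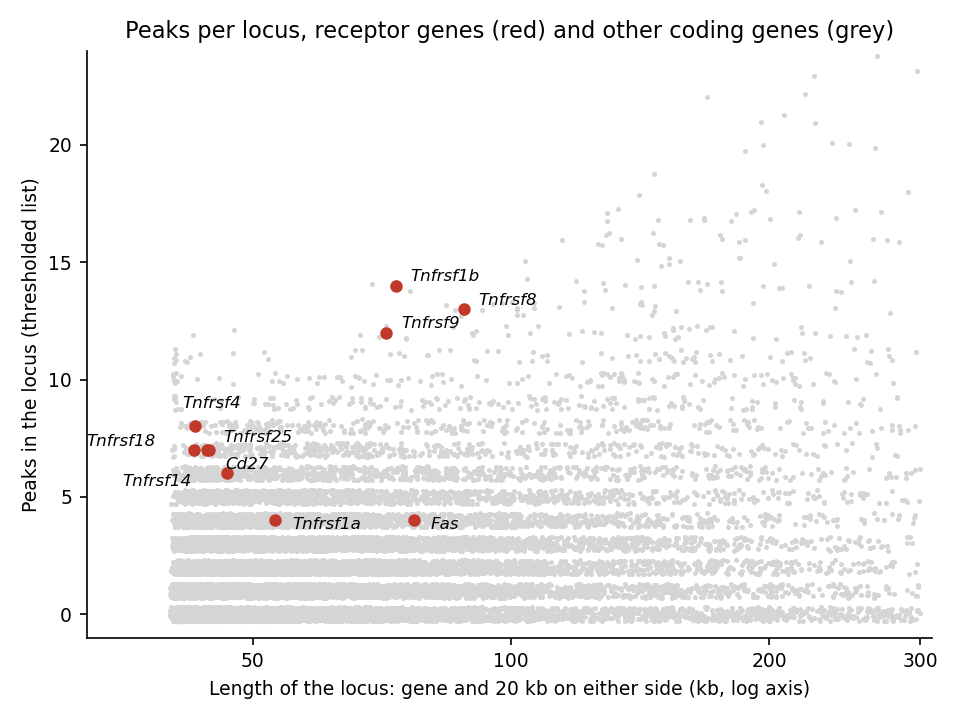
Number of thresholded peaks per locus (vertical axis) against locus length in kb (horizontal axis, log scale) for the 10 receptor genes, labelled, and for protein-coding genes with loci of up to 300 kb as grey points with a small jitter, drawn up to 24 peaks. The receptor loci hold 4 to 14 peaks at lengths of 42.7 to 88.0 kb, and with these 20 kb flanks Tnfrsf1b, Tnfrsf8 and Tnfrsf9 sit highest while Tnfrsf1a and Fas sit lowest among the 10.

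The peaks cannot all be assigned to the receptors. Of the 71 peaks 11 lay in 2 loci at once, because Tnfrsf4 and Tnfrsf18 are 9.55 kb apart and Tnfrsf1b and Tnfrsf8 20.27 kb apart. For 55 of 71 the nearest 5′ end of a protein-coding gene was that of a receptor, and 8 of 71 lay in the promoter window of another protein-coding gene only. The farthest summit inside a locus lay between 6.72 kb (Fas) and 19.85 kb (Tnfrsf1b) from the gene, and the nearest summit left outside lay between 20.27 kb (Tnfrsf8) and 60.22 kb (Tnfrsf1a).

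**Figure D2:**
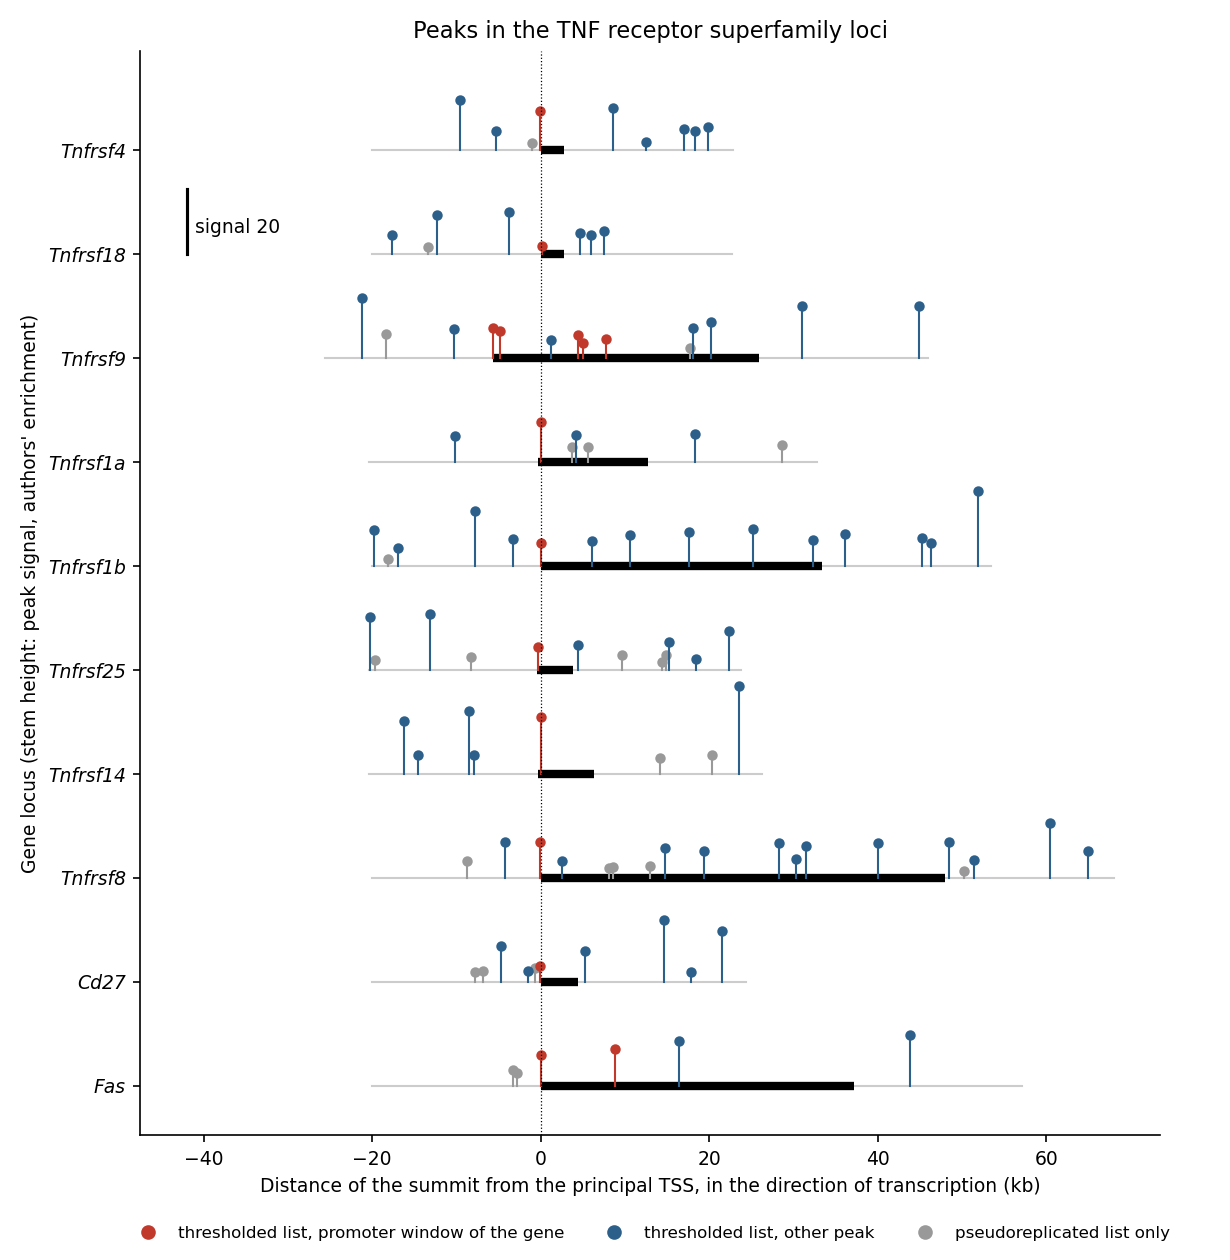
Position of each peak summit relative to the principal TSS of the gene, in kb in the direction of transcription, with 1 row per receptor gene, the gene body as a black bar and the height of each stem giving the signal (the scale bar is a signal of 20). Red marks are thresholded peaks that overlap the promoter window of the gene, blue marks the other thresholded peaks and grey marks peaks of the pseudoreplicated list only. The marks are spread along the bodies of Tnfrsf1b, Tnfrsf8 and Tnfrsf9 and are sparse at Fas and Tnfrsf1a.

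Tnfrsf4 and Tnfrsf18 encode OX40 and GITR, costimulatory receptors that regulatory T cells carry on their surface, and lie head to tail on chromosome 4 (GRCm38, chr4:156013843-156016612 and chr4:156026164-156028895, both on the plus strand). The peak over the Tnfrsf4 start site (chr4:156013435-156014266) had a signal of 12.02 and a −log10 p of 216. The peak in the first exon of Tnfrsf18 (chr4:156026175-156026375) had a signal of 2.69 and a −log10 p of 29.96, began 11 bp downstream of the principal TSS and was 201 bp wide. GITR thus had the weakest promoter peak of the 10 receptors, and its signal was the lowest of all 11523 protein-coding genes with a promoter peak. RefSeq places the start of Tnfrsf18 farther downstream than the principal TSS, inside this first-exon peak. Of its RefSeq promoter (chr4:156026072-156026371), 197 of 300 bp lay under a peak.

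Between the genes lay a far stronger site. The peak at −3.80 kb from Tnfrsf18 (chr4:156021358-156022693) had a signal of 13.2 and a −log10 p of 533, the highest −log10 p of both loci. It was 1336 bp wide with 3 summits of signal 4.66, 8.18 and 13.2, and its highest summit lay within 1 kb of the annotated starts of 2 noncoding genes, Gm25982 (an snRNA) and Gm37090. Its window is printed above with the RUNX match TGTGGTT.

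Downstream of Tnfrsf18, peaks at +4.68, +5.96 and +7.51 kb had signals of 6.60, 5.82 and 7.22. The peaks at +4.68 and +5.96 kb lie within 1 kb of annotated starts of Gm16008, an antisense gene. The strongest signal of the Tnfrsf4 locus, 15.5, was at −9.56 kb, inside an intron of the neighbouring gene Sdf4. All 7 peaks counted for Tnfrsf18 also counted among the 8 of Tnfrsf4, and by nearest 5′ end 5 belonged to Tnfrsf18 and 3 to Tnfrsf4.

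Tnfrsf9 encodes 4-1BB, an activation-induced costimulatory receptor, on chr4:150914562-150946102 (plus strand). A longer model of Camta1 covers the peaks inside the gene from +1.21 kb on, but not those at its 5′ end. Its principal TSS at 150920190 was under no peak, and accessible sites lay at its other start sites. The peak at the 5′ end of the gene (chr4:150914179-150914800) had a signal of 9.28 and a −log10 p of 319, and it lies in the promoter window of Park7, the divergent neighbour, as well, so its signal cannot be told apart between the genes. A second peak 0.81 kb into the gene (chr4:150915082-150915853) had a signal of 8.25 and also lies in the promoter windows of both genes.

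Inside the first intron of Tnfrsf9 were peaks at +1.21, +4.37, +5.00 and +7.76 kb with signals of 5.55, 7.29, 4.65 and 5.81. The peaks at +4.37, +5.00 and +7.76 kb overlap promoter windows of further annotated transcripts of the gene. RefSeq gives 2 promoters for it (300 bp each, GRCm38.p6): the one at chr4:150919905-150920204 had 0 bp under a peak, while all 300 bp of the one at chr4:150927749-150928048 lay under the peak at +7.76 kb. That peak held AP-1, NF-kB and STAT matches, and its NF-kB match is printed above.

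Intron 7 of Tnfrsf9 held a pair of stronger peaks at +18.06 and +20.23 kb, with signals of 9.23 and 11.0. The strongest signal of the locus was 18.5 at −21.27 kb, in an intron of Park7 and nearer to the Park7 than to the Tnfrsf9 5′ end. The peak at +44.83 kb reached a signal of 16.0 and a −log10 p of 318, and lies within 1 kb of the start of Gm23405, an snRNA gene inside Camta1.

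Tnfrsf1b and Tnfrsf8 encode TNFR2, a TNF receptor with no death domain that regulatory T cells express, and CD30, a receptor of activated lymphocytes. They follow one another on the minus strand of chromosome 4 (chr4:145213463-145246870 and chr4:145267137-145315164). These loci had the highest counts, 14 and 13 peaks, of which 4 were shared. Their strongest site by −log10 p was the shared intergenic peak at −7.81 kb from Tnfrsf1b (chr4:145254330-145255057), with a signal of 17.1 and a −log10 p of 737, the highest −log10 p of all 71 peaks. Its window, printed above, held AP-1 TGACTCA and 2 STAT matches.

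The other shared intergenic peaks lay at −3.31, −16.91 and −19.85 kb from Tnfrsf1b and had signals of 8.25, 5.56 and 11.2. The peak over the Tnfrsf1b start site (chr4:145246425-145247142) had a signal of 7.12 and a −log10 p of 145. Within the gene, introns 1 and 8 held peaks at +6.02, +10.58, +17.56 and +25.24 kb with signals of 7.70, 9.45, 10.6 and 11.3, each above the signal of the start site. The strongest signal of the Tnfrsf1b locus, 23.2, was at +51.84 kb over the promoter of the next gene, Vps13d, and was 1 of the 2 peaks of the 71 in the top 10% of all signals.

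The peak over the Tnfrsf8 start site (chr4:145314996-145315478) had a signal of 11.2 and a −log10 p of 254. It held the NF-kB and AP-1 matches printed above. Upstream at −4.27 kb a peak of signal 11.0 held another NF-kB match, GGGACTTCCC on the strand of the gene. The 7 other peaks of the locus that were not shared with Tnfrsf1b were intronic, from +2.51 to +40.07 kb, with signals of 5.17 to 10.7, and 6 of these lay in introns 2 to 11.

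Cd27 encodes a costimulatory receptor of naive and memory T cells, on the minus strand of chromosome 6 (chr6:125232622-125237010) within a longer model of Vamp1. Its start-site peak (chr6:125236679-125237243) had a signal of 4.96 and a −log10 p of 71.3, the second lowest promoter signal of the 10 receptors. A stronger peak lay upstream at −4.74 kb in an exon of Vamp1, with a signal of 11.0, a −log10 p of 248 and ETS and RUNX matches. The strongest peak of the locus was at +14.66 kb in an intron of Vamp1, with a signal of 19.2 and a −log10 p of 520. The peaks at +5.28, +17.79 and +21.45 kb, with signals of 9.52, 3.06 and 15.8, lie in promoter windows of Tapbpl or Vamp1.

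Tnfrsf1a encodes TNFR1, the death domain receptor for TNF, on the same chromosome (chr6:125349362-125362484, plus strand). The peak over its start site (chr6:125349563-125350159) was the strongest of its locus by both measures, with a signal of 12.3 and a −log10 p of 161. The 3 other peaks, at −10.18, +4.13 and +18.28 kb, had signals of 7.93, 8.43 and 8.70, and the outer pair lies in introns of Scnn1a and Plekhg6. Between Cd27 and Tnfrsf1a lies Ltbr, the lymphotoxin β receptor gene (chr6:125306571-125313885), whose locus held 0 peaks.

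Tnfrsf25 encodes DR3, the death domain receptor for the ligand TL1A, and Tnfrsf14 encodes HVEM, a receptor for LIGHT that also binds the inhibitory receptor BTLA. The start-site peak of Tnfrsf25 (chr4:152115734-152116526) had a signal of 7.18 and a −log10 p of 135 and held the NF-kB match GGGAAGCCCC. A peak at +4.40 kb in an exon of Espn had a signal of 7.80 and the highest −log10 p of the locus, 197. The strongest signals of the locus were 17.3 at −13.10 kb and 16.3 at −20.24 kb, in an intron and the promoter window of Plekhg5.

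The start-site peak of Tnfrsf14 (chr4:154927682-154928822) had a signal of 17.7 and a −log10 p of 192, the highest promoter signal of the 10 receptors. The 5 other peaks of the locus were intergenic. The peak at +23.56 kb (chr4:154904292-154905105) had a signal of 27.0, the highest of all 71, and a −log10 p of 512, and was the only one in the top 10% of both measures. Upstream, the peak at −8.55 kb had a signal of 19.3 and a −log10 p of 528.

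Fas encodes the death receptor that limits lymphocyte number (chr19:34290666-34327772, plus strand). Its locus held only 4 peaks. The peak over the start site (chr19:34290036-34290895) had a signal of 9.37 and a −log10 p of 138, and held a STAT and a KLF/SP match. Peaks in the first intron at +8.76 and +16.35 kb had signals of 11.3 and 13.8, and the one at +8.76 kb overlaps the promoter window of an internal start site. The strongest signal was 15.6 at +43.82 kb, 6.72 kb past the end of the gene, with a −log10 p of 67.6. In the order of the peaks along the gene the signals were 9.37, 11.3, 13.8 and 15.6, whereas the −log10 p was highest at the start site.

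Promoter signal ordered the receptors as Tnfrsf14 (17.7), Tnfrsf1a (12.3), Tnfrsf4 (12.02), Fas (11.3, at its internal start site), Tnfrsf8 (11.2), Tnfrsf9 (9.28), Tnfrsf25 (7.18), Tnfrsf1b (7.12), Cd27 (4.96) and Tnfrsf18 (2.69). Taken by its start-site peak, at 9.37, Fas would follow Tnfrsf8. With 1 pooled sample it is not known which neighbours in this order differ. The median promoter signal was 10.2 in the 10 receptors, against 17.3 in all genes with a promoter peak, and 9 of 10 lay below that value. The exception was Tnfrsf14. By the −log10 p of the same peaks the order differed, with Tnfrsf9 (319), Tnfrsf8 (254) and Tnfrsf4 (216) first and Tnfrsf14 at 192. The median −log10 p was 153 in the 10 receptors, against 321 in all genes with a promoter peak. Even the highest, that of Tnfrsf9, lay below 321.

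Of the 71 peaks 27 (38.0%, interval 26.8 to 50.3%) had a summit within 1 kb of an annotated TSS, against 39.6% of all peaks. Of these 27, 15 lay in a promoter window of a receptor gene, 8 in that of another protein-coding gene only and 4 near noncoding starts only. A further 26 (36.6%) were intronic, 15 (21.1%) intergenic and 3 (4.23%) exonic. Counting only the 5′ ends of genes as start sites lowered the promoter share of the receptor peaks to 25.4%. No share of all peaks is given under that rule, so 25.4% cannot be set against 39.6%. The intronic, intergenic and exonic shares have no value for all peaks either. By signal, the strongest peak lay away from start sites in 7 of 10 receptor loci, against 30.5% of all gene loci with a peak. By −log10 p it did so in 5 of 10, against 20% of all gene loci with a peak. The shares of all gene loci were not matched for the number of peaks. That number had a median of 7 in receptor loci and 2 over all protein-coding genes, and a locus with few peaks has fewer distal ones to rank. The loci of Tnfrsf4 and Tnfrsf18 share peaks, as do those of Tnfrsf1b and Tnfrsf8, so the 10 are not independent.

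The signal and the −log10 p placed the receptor peaks differently. The median signal was 9.28 in the receptor loci, against 13.2 in all peaks, and 55 of 71 (77.5%) lay below the median of all peaks. The median −log10 p was 138 in the receptor loci, against 115 in all peaks, and 42 of 71 (59.2%) lay above the median of all peaks. Both held at once for 31 of 71 receptor peaks (43.7%), against 12.2% of all peaks. What the enrichment was computed against is not given in the sources used here, and its part in this difference was not tested. The gap in median signal depended on the peaks used. In the pseudoreplicated list it was small, with 7.92 in the receptor loci against 8.55 in all peaks. Among thresholded peaks at or above the median −log10 p it was 10.9 against 17.5.

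The difference from all peaks depended on the class of the peak. At promoters the peaks of the receptor loci were lower in both measures, with a median signal of 8.85 in the 27 (8.25 in the 15 of receptor genes) against 15.4 in all promoter peaks and a median −log10 p of 138 against 232 in all promoter peaks. Away from promoters their median signal was 9.63 against 12.1 in all distal peaks, while their median −log10 p was 136 against 83.9 in all distal peaks. In the top 10% of all peaks were 2 of 71 receptor peaks by signal (2.82%) and 5 of 71 by −log10 p (7.04%). The peaks in the top 10% by −log10 p were those at −7.81 kb of Tnfrsf1b, −3.80 kb of Tnfrsf18, −8.55 and +23.56 kb of Tnfrsf14 and +14.66 kb of Cd27, all of them outside the promoter windows of the receptor genes.

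**Figure D3:**
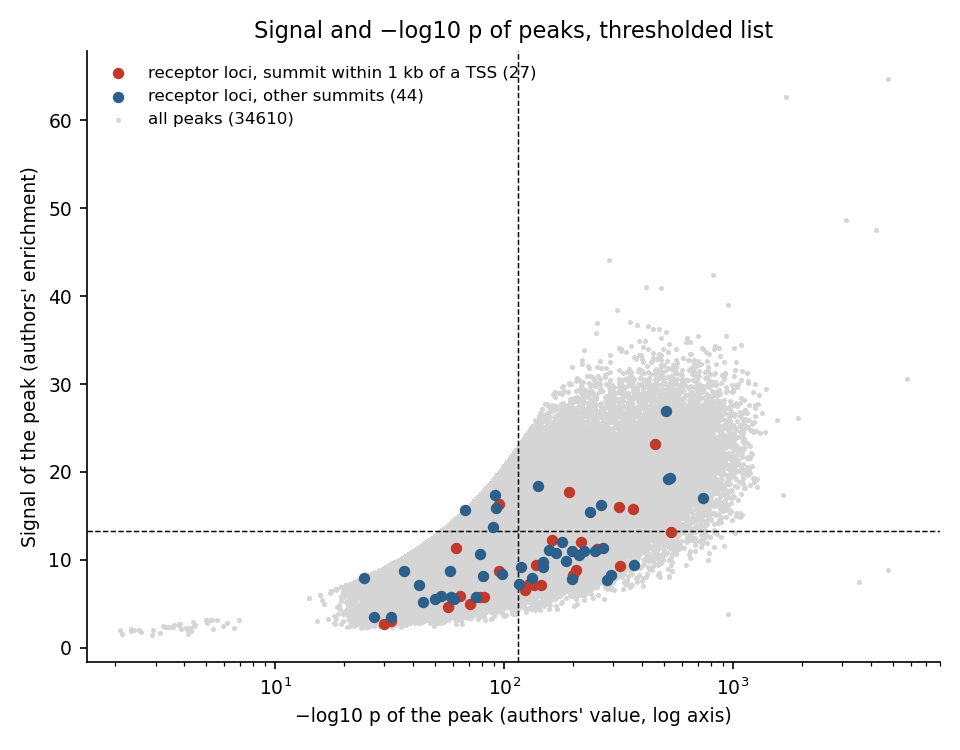
Signal (vertical axis, the authors' enrichment value) against −log10 p (horizontal axis, log scale) for the 71 peaks of the receptor loci, coloured by whether the summit is within 1 kb of a TSS, over all 34610 thresholded peaks in grey. Dashed lines mark the medians of all peaks, 13.2 and 115, and 31 of the 71 receptor peaks sit in the lower right field.

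The lenient list added 23 peaks with signals of 2.16 to 7.58 (median 4.14). Of the peaks of the lenient list in the receptor loci, 75.5% passed the threshold, against 58.7% in the whole list. The weakest thresholded receptor peak had a −log10 IDR of 1.40 (+17.79 kb of Cd27) and the strongest that did not pass had 1.17 (−18.34 kb of Tnfrsf9). The additions included peaks beside the start sites of Tnfrsf4 at −1.03 kb (signal 2.23) and Cd27 at −0.71 kb (signal 4.32). A pair of them lay upstream of Fas at −3.28 and −2.80 kb, with signals of 4.81 and 3.84.

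The ranked list gives the −log10 p of each peak in 2 inputs of the IDR step. Which reads each input held is not given in the sources used here. The larger was a median of 1.19 times the smaller over the 71 receptor peaks, against 1.16 times over all peaks. It was more than 1.5 times the smaller at 9 of 71 receptor peaks (12.7%), against 9.84% of all peaks. The widest gap was at +19.35 kb of Tnfrsf8, with a −log10 p of 54.7 in one input and 30.3 in the other. The Tnfrsf25 start-site peak (55.1 and 83.5) and the +43.82 kb peak of Fas (43.0 and 28.6) were also among the 9.

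Of 18 TNF superfamily ligands 10 (55.6%, interval 30.8 to 78.5%) had a promoter peak, a share near the 52.6% of all genes. This depended on the peaks used. In the pseudoreplicated list 14 of 18 had one, against 57.7% of all genes. Among peaks at or above the median −log10 p it was 7 of 18, against 44.7%. Among the partners of the 10 receptors, Fasl, the ligand of Fas, had 8 peaks in its locus and a promoter signal of 18.01, and Tnfsf14, which encodes LIGHT, had a promoter signal of 15.5. Tnfsf4 (OX40 ligand), Tnfsf8 (CD30 ligand) and Tnfsf9 (4-1BB ligand) had promoter signals of 14.1, 8.21 and 7.74. Tnfsf18, the ligand of GITR, and Tnfsf15, which encodes TL1A, had 0 peaks in their loci, and Cd70, the ligand of CD27, had 1 peak and none at its promoter. The locus of Tnf held 12 peaks with none at its promoter, and its neighbours Lta and Ltb, which encode the lymphotoxins, had promoter signals of 8.58 and 7.29. The loci of Lta and Ltb held 11 peaks each and overlap that of Tnf, so the peaks of these genes are largely shared. Tnfsf10, which encodes TRAIL, had the highest promoter signal of the ligands, 18.4. Tnfsf12 and Tnfsf13 were without a promoter peak.

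Of 18 other receptors of the superfamily 9 (50%, interval 26.0 to 74.0%) had a promoter peak, a share near the 52.6% of all genes. In the pseudoreplicated list 12 of 18 had one, against 57.7% of all genes. No peak lay in the locus of 6 of 18, a share close to that of all genes (6622 of 21911). The highest promoter signals were those of Tnfrsf22 (31.98) and Tnfrsf23 (29.99), decoy receptors for TRAIL in the mouse, and Tnfrsf13b (21), which encodes TACI. The Tnfrsf13b peak lies at an internal start site, and no peak lay at the 5′ end of that gene. The B cell receptors Tnfrsf13c (BAFF receptor) and Tnfrsf17 (BCMA) had 1 peak each in their loci and none at the promoter, and Tnfrsf11b (osteoprotegerin) had 0 peaks. Cd40 had 0 peaks as well. The median promoter signal of the 9 was 17.7, while that of the 10 receptors described here was 10.2. By −log10 p the medians were closer, at 165 in the 9 and 153 in the 10, against 321 in all genes with a promoter peak.

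All 24 adaptor and signalling genes had a promoter peak (interval 85.8 to 100%), against 52.6% of all genes. Their median promoter signal was 14.8, against 17.3 in all genes with a promoter peak. The −log10 p of these peaks went the other way, with a median of 397 against 321. The highest were Chuk (29.0), Ikbkg (28.1) and Ikbkb (19.1), the genes of the IkB kinase complex, although the peak of Ikbkg is also in the promoter window of Fam3a. Among the TRAF genes, Traf1 had 9 peaks in its locus and a promoter signal of 4.88 at an internal start site. At the 5′ end of Traf1 the signal was 2.41. Traf2 and Traf5, adaptors of OX40 and CD27, had promoter signals of 15.3 and 14.8. Tradd and Fadd, the adaptors of the death domain receptors, had 11.98 and 16.7. These Traf, Tradd and Fadd values were picked from the list for their roles.

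**Figure D4:**
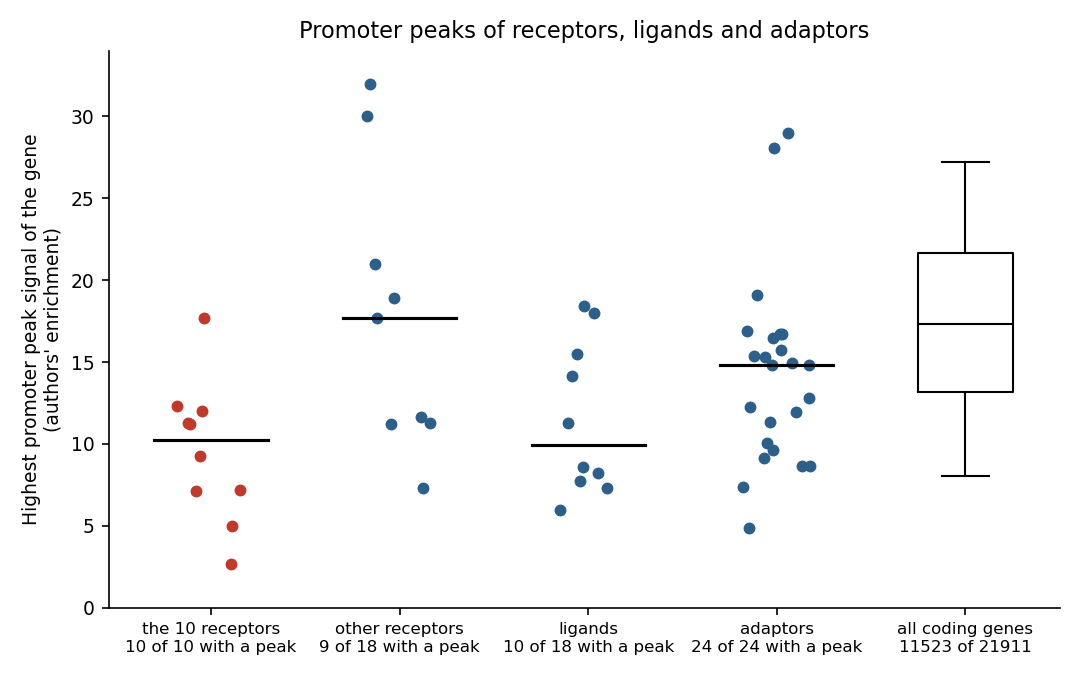
Promoter signal of the genes with a promoter peak in 4 lists (points, with a line at the median), with the 10 receptors first and then the other receptors, the ligands and the adaptors, beside all protein-coding genes with a promoter peak as a box (quartiles, with whiskers at the 5th and 95th percentiles). The receptors range from 2.69 to 17.7 with a median of 10.2, below the median of 17.3 in all genes.

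Motif matches were counted in 200 bp around each summit on both strands, in letters with N for any base. The ETS pattern was searched as ACNGGAAG, the RUNX pattern as TGTGGTT, the AP-1 pattern as TGANTCA and the STAT pattern as TTCNNNGAA. The pattern of forkhead (FOX) factors was TGTTTAC, that of NFAT was TGGAAAA, that of KLF and SP factors was GGGCGGG and that of TCF and LEF factors was CTTTGAT. For GATA factors the letters were AGATAAG, for CREB and ATF factors they were TGACGTC and for NR4A factors AAAGGTCA. The remaining patterns were NF-kB, CTCF and the BATF-IRF composite, which contains the AP-1 pattern. RUNX matches were in 11 of 71 receptor windows (15.5%, interval 8.0 to 26.0%), against 9.07% of all windows, and ETS matches in 11 of 71 (15.5%), against 13.9%. AP-1 was at 9.86%, against 9.62% of all windows. These intervals include the shares of all windows.

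At the 27 promoter windows of the receptor loci NF-kB and STAT matches were in 5 each (18.5%, interval 6.30 to 38.1%), against 8.19% and 4.60% of all promoter windows. In the 15 windows that belong to a receptor gene there were 3 with NF-kB and 4 with STAT. The STAT match at −4.82 kb of Tnfrsf9 is in a peak that also lies in the promoter window of Park7. The interval for NF-kB includes the share of all promoter windows, and that for STAT lies above it. At the 44 distal windows both were in 3 (6.82%), against 8.28% and 7.05% of all distal windows. With 14 patterns counted over all, promoter and distal windows, 1 interval that does not include the share of all windows is not by itself a difference.

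The NF-kB matches at receptor promoters were those of Tnfrsf9 at +7.76 kb, Tnfrsf25 at −0.32 kb and Tnfrsf8 at −0.13 kb, printed above. The other matches in promoter windows were at +4.68 kb of Tnfrsf18 (GGGACATCCC), near the antisense gene, and in the Vps13d promoter (GGGGCGCCCC). The STAT matches in promoter windows were TTCACAGAA in the first-exon peak of Tnfrsf18, TTCCCAGAA at +5.96 kb of Tnfrsf18, TTCTGAGAA at −4.82 kb and TTCCAAGAA at +7.76 kb of Tnfrsf9, and TTCTGGGAA at the start site of Fas. A match is a description of the letters and not a bound site.

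Distal windows held RUNX matches in 9 of 44 (20.5%, interval 9.80 to 35.3%), against 12.2% of all distal windows, and ETS in 9 of 44 (20.5%), against 15.8%. KLF/SP, a pattern of GC-rich promoters, was in 7 of 27 promoter windows (25.9%, interval 11.1 to 46.3%), against 36.9% of all. The interval includes the share of all promoter windows. The median GC content was 56.5% in the 27 promoter windows of the receptor loci and 56% in the 15 that belong to a receptor gene, against 62% in all promoter windows. The forkhead pattern FOX was in 0 of 71 windows (interval 0 to 5.06%, where 3 counts would be 4.23%), against 3.08% of all windows.

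**Figure D5:**
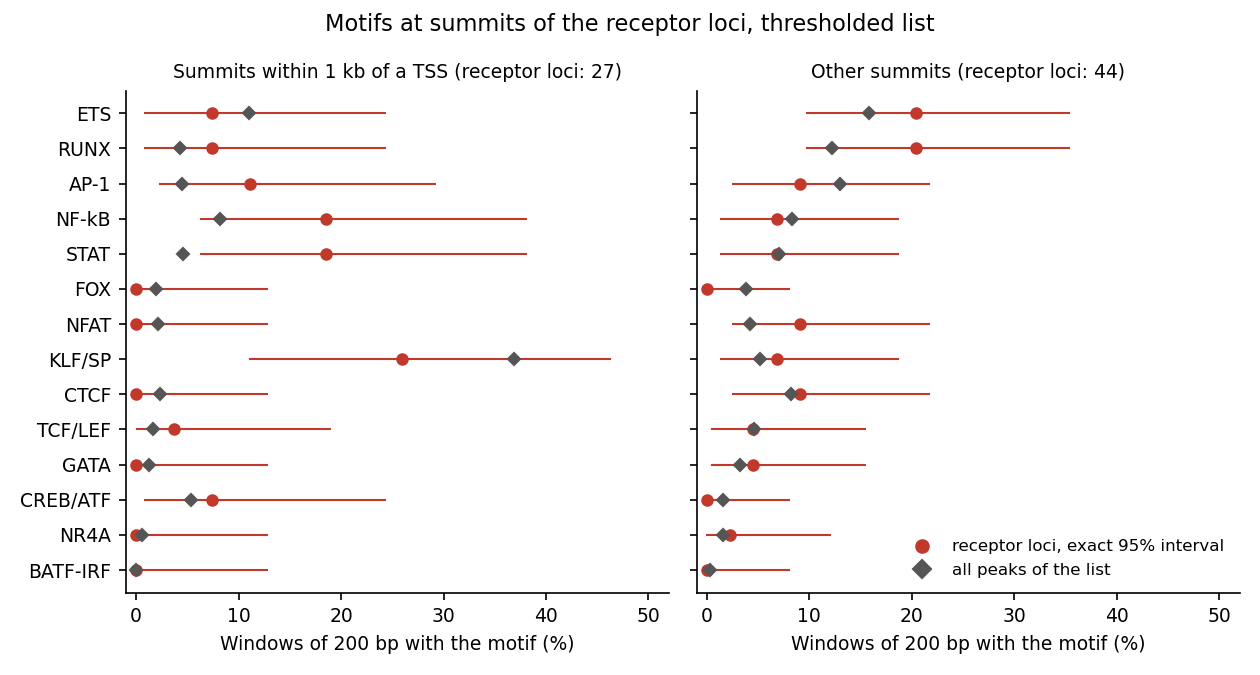
Share of 200 bp summit windows with each motif in %, for promoter peaks and for distal peaks in separate panels, with receptor loci first and all thresholded peaks after them. Bars on the receptor shares are exact 95% intervals. At promoters NF-kB and STAT are at 18.5%, against 8.19% and 4.60% in all promoter windows.

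RefSeq gives 12 promoters for the 10 receptors, each from 250 bases before to 50 after the start (GRCm38.p6). They held between 2 (Tnfrsf14) and 15 (Tnfrsf8 and 1 of 2 of Tnfrsf25) CpG dinucleotides, with a median of 9 against 7 in all 32851 promoters. The NF-kB pattern was in 3 of 12, against 8.46% of all, and the STAT pattern in 6 of 12, against 8.30% of all. Tnfrsf9 and Tnfrsf25 have 2 promoters each, and 1 of each pair held both patterns. With 12 promoters of 10 genes, no interval and the patterns chosen with earlier results known, these shares are descriptions only. Receptors with CpG-poor promoters were at both ends of the order of promoter signal, since Tnfrsf14 had the highest signal with 2 CpG and Tnfrsf18 the lowest with 4.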

How the data were processed

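ATAC-seq peaks were taken as deposited. The authors called them on 1 alignment that both libraries share, on the assembly mm10, per the file listings, and deposited a signal of enrichment and a −log10 p for each peak. A ranked list adds, per peak, the −log10 of the IDR and the −log10 p of 2 inputs. Not given in the sources used here are the aligner, the peak caller, any shift of read ends for the transposase and the background of the enrichment. Column order follows the narrowPeak format.

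The thresholded list was the main set. Where several lines had the same interval, they became 1 peak at the summit with the highest signal. Coordinates are 1-based. All lines of the thresholded and pseudoreplicated lists lay within the 21 chromosomes of GRCm38.p6. A summit within 1 kb of any annotated TSS was called promoter, and every other summit distal, as exonic if in an exon, else intronic if in a gene, else intergenic. The promoter signal of a gene is the highest among peaks that overlap 1 kb around any TSS of the gene, internal ones included. Overlaps were computed with Python 3.11.15, pandas 2.3.3 and numpy 2.4.6, sequences read with pysam 0.24.0, exact Clopper-Pearson 95% intervals made with scipy 1.17.1 and figures drawn with matplotlib 3.10.9. The locus, promoter and motif steps were tested on simulated data.

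Of the marker genes listed for other cell types, 1 is not reported here, for a reason other than its value. The 10 genes, the gene lists and the motifs were chosen with earlier results of these data known. The rule for named items took, for each receptor, its strongest peak by signal and its start-site peak, then all receptor peaks in the top 10% of signal. From every other list it took the 3 genes of highest promoter signal and, in list order, up to 3 that lacked a promoter peak. Other peaks, ligands, receptors and adaptors were named after their values were seen. With 1 pooled biological sample no p-value was computed. Alternatives were the pseudoreplicated list, a minimum −log10 p, other promoter and locus windows, gene 5′ ends only, every summit as a peak, nearest 5′ ends only and motif windows of 400 bp.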

Additional observations from a re-analysis of the deposited data

How the results depend on the processing

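No paired analysis was possible because the peaks were called on pooled reads of 1 biological sample, and for the same reason no replicate could be left out. All 10 receptors had a promoter peak under the pseudoreplicated list (57.7% of all genes), promoter windows of 500 bp (51.7%) and gene 5′ ends only (48.6%), and 8 of 10 had one with a minimum at the median −log10 p (44.7%). That minimum left 42 distinct peaks and a median of 4 per locus. Gene 5′ ends only gave a promoter share of 25.4% of the receptor peaks, with no share of all peaks to set beside it. Flanks of 5 kb gave 46 peaks and a median of 3.5, and every summit as a peak gave 128 and a median of 13.5. The fewer peaks follow from the narrower rules. The other 41 summary values stayed within 1.5 times the count or within the interval of the share reported. That holds for the values themselves and not for their differences from all peaks or all genes. For the single genes and motifs 58 values did so and 30 did not, most of them peak counts per locus under other flanks, a minimum or every summit. Ranked by −log10 p, an alternative chosen after seeing the data, the strongest peak was distal in 5 of 10 loci. Depth is unknown, so a receptor site below the threshold cannot be told apart from closed chromatin.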

Other observations

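Several of the strongest sites of the receptor loci lay over features of other genes. Of the 10 peaks that were the strongest of a locus by signal, those of Tnfrsf4, Tnfrsf9, Tnfrsf25 and Cd27 were in introns of Sdf4, Park7, Plekhg5 and Vamp1, and that of Tnfrsf1b was over the promoter of Vps13d. By −log10 p the strongest peak was the same one in 4 of 10 loci, namely Tnfrsf18, Tnfrsf1a, Tnfrsf8 and Cd27. Of the 71 peaks 38 had more than 1 summit (53.5%), against 56.3% of all peaks, and their median width was 622 bp, against 668 bp in all peaks.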
